A study of Rattus norvegicus with 21 samples.

Results

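The step from 800 to 2000 mg/kg of DAM (dammar resin, a plant resin used in food and varnish) was examined by setting the 3 rat liver arrays at 2000 mg/kg against the 3 at 800 mg/kg, 6 of the 21 arrays of the series. The arrays were chosen by the dose in their labels, and all 31042 probe sets that are not array controls entered. The DAM study used male F344 rats fed for 28 days with a basal diet (0 mg/kg), a diet with 2% DAM (800 mg/kg) or a diet with 5% DAM (2000 mg/kg), with 3 biological replicates in each group. No group carries a genetic change, and no label used here states the animals' age. Livers were frozen in liquid nitrogen, and total RNA was hybridised to 1-colour Affymetrix arrays, 1 array per replicate. The remaining 12 arrays belong to a study of piperonyl butoxide in another strain and were not used.

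The liver handles foreign compounds through enzymes and exporters that nuclear receptors such as CAR and PXR and the oxidative stress factor NRF2 switch on. It also makes fat, cholesterol and bile acids under the control of SREBP factors and of receptors that sense sterols and bile acids. In rodents many liver genes differ between males and females because growth hormone, released in sex-specific rhythms, acts through the factor STAT5, which raises the feedback inhibitor Cish and lowers the repressor Bcl6. The liver-enriched factors Onecut1, Foxa2 and Foxa1 hold the hepatocyte programme and take part in the same hormone responses.

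Signals are the deposited array intensities, and differences are on the log2(signal + 16) scale from a limma fit to the 9 DAM arrays, with Benjamini-Hochberg adjustment over 18625 probe sets. A probe set passed where its adjusted p was under 0.05. Median signals lay between 76.0 and 86.2 on the 9 arrays. Within the 3 groups the arrays correlated at 0.981 to 0.984 across probe sets, and no array stood apart, since the root mean square deviation from the group mean was 0.207 to 0.227. The liver label was borne by the hepatocyte list, whose 15 measured markers summed to 389682 to 433566 at 800 mg/kg and 367448 to 430988 at 2000 mg/kg. The p-values measure the spread between these 9 samples.

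Of the 18625 probe sets tested, 207 (1.11%) passed: 73 were higher at 2000 than at 800 mg/kg (0.392%) and 134 were lower (0.719%). At least 2-fold changes on the fitted scale were seen for 30 of the rises and 41 of the falls, and the median size of a called difference was 0.83. In all 207 the 3 arrays at 2000 mg/kg lay wholly on one side of the 3 at 800 mg/kg, as they did in 18.6% of all tested probe sets. Where separate groups are described for a called gene below, they therefore add nothing to its call. The called probe sets with 1 symbol stood for 61 genes that rose and 88 that fell, of 10670 genes tested. The median difference over all tested probe sets was -0.004 and the median standard error was 0.159. The number of calls depended on single arrays: 123 passed without replicate 2 of the 2000 mg/kg group, 121 without replicate 1 of the 800 mg/kg group and 123 without replicate 2 of that group, of which 110, 112 and 114 were among the 207. With the variance prior held constant over signal, 60 passed, 59 of them among the 207.

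**Figure D1:**
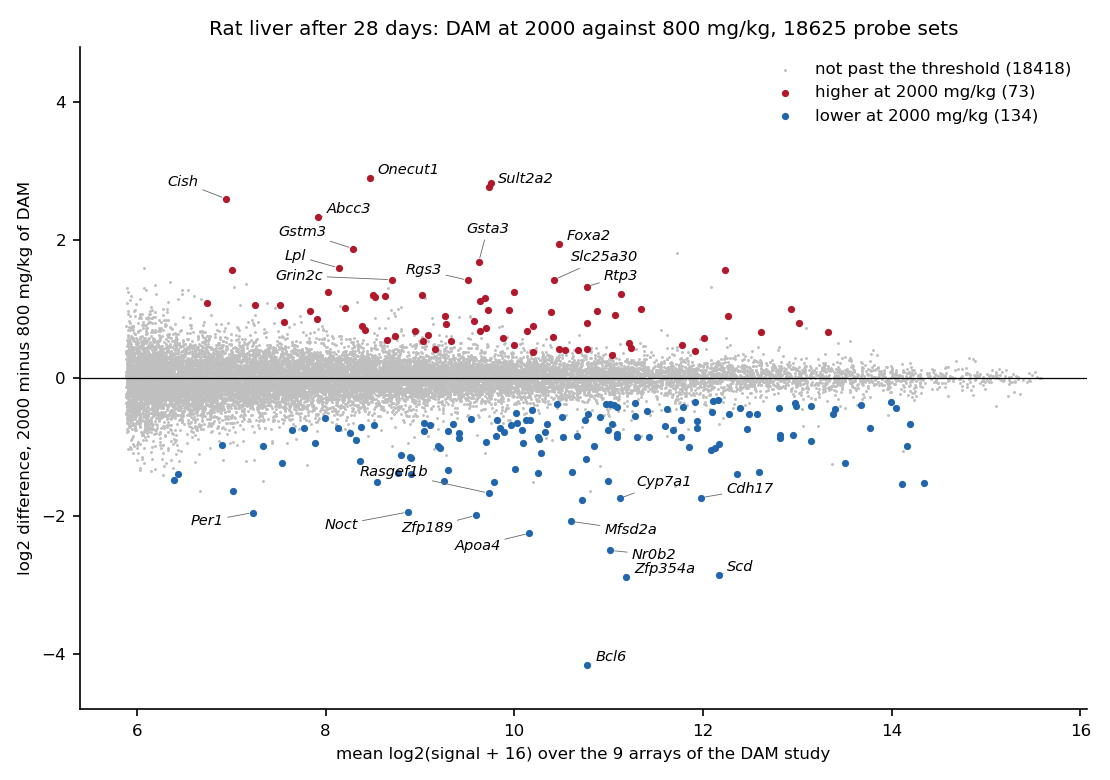
Each point is 1 of 18625 probe sets, with its mean log2(signal + 16) over the 9 DAM arrays on the x axis and its log2 difference, 2000 minus 800 mg/kg, on the y axis. The 73 called rises (red) reach 2.90 for Onecut1, and the 134 called falls (blue) reach -4.17 for Bcl6; the 12 largest named changes in each direction carry their gene symbols.

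Promoter windows from RefSeq (GRCr8, 250 bases before to 50 after a gene's start) were listed for 8 of the 12 genes with the largest rises and 8 of the 12 with the largest falls. The windows of Cish, Bcl6 and Gsta3 are printed because Cish and Bcl6, both known STAT5 targets, showed some of the largest opposite changes, and because Gsta3, a glutathione S-transferase, holds an antioxidant response element core. Capitals mark matches on either strand to TTCNNNGAA (a STAT element), TGACNNNGC (the antioxidant response element core), GCGTG (the xenobiotic response element core) and CACGTG (an E-box). The Cish window is chr8:116850719-116851018, the Bcl6 window chr11:90358503-90358802 and the Gsta3 window, the first of 2 listed, chr9:31154739-31155038, all on the plus strand.
Cish: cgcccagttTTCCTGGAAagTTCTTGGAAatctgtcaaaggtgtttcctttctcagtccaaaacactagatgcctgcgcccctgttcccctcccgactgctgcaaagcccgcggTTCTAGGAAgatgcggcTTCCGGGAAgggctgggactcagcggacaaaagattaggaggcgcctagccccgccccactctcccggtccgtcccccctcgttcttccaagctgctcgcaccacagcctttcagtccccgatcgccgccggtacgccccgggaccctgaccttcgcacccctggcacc
Bcl6: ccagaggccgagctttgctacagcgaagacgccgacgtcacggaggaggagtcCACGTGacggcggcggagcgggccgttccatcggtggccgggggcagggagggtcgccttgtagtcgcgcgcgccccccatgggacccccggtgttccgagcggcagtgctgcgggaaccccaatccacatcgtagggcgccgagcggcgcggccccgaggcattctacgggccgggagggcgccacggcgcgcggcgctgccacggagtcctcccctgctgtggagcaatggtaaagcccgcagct
Gsta3: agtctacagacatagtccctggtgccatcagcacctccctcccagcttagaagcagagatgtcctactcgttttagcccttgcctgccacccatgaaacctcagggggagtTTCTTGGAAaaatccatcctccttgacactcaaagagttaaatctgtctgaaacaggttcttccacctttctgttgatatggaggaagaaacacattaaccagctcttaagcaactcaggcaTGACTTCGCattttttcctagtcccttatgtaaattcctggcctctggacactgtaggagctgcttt
The Cish window held 4 STAT elements, starting at -241, -230, -136 and -119 relative to the gene's start. Counts over the 16 matched genes use the first listed window of each gene. STAT elements were found in 8.87% of all 33469 windows, and in those of Cish, Gsta3, Nr0b2 and Zfp354a among the 16 matched genes; this motif was added after the values were seen. The antioxidant response element core was present in 12.1% of all windows and, among the 16, in Gsta3 (at -17) and Scd; the further window of Rasgef1b also held it (at -162). The E-box was present in 6.42% of all windows, and in those of Bcl6 (at -197) and Nr0b2. The xenobiotic response element core was present in 29.7% of all windows and in those of Noct, Nr0b2 and Scd, and the further windows of Gsta3 (at -233) and Rasgef1b (at -180, -54 and -36) also held it. These matches describe letters in a window and were not tested.

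The largest fall was that of Bcl6 and the largest rise that of Onecut1, and Cish and Foxa2 were also among the 12 largest rises. Bcl6, a transcriptional repressor that growth hormone lowers through STAT5, read 4586, 4823 and 5387 at 800 mg/kg and 254, 199 and 343 at 2000 mg/kg. All 3 arrays at the higher dose lay far below those at the lower dose, an 18.6-fold fall of the mean signal (-4.17 ± 0.38 (SE), limma adjusted p = 0.000223). Cish, the STAT5-induced inhibitor of cytokine receptors, moved the other way: 38.6, 45.3 and 57.0 at 800 mg/kg became 402, 219 and 537 at 2000 mg/kg. Its mean rose 8.23-fold (2.60 ± 0.29, limma adjusted p = 0.000734), with no overlap between the groups. The Cish signals at 800 mg/kg lay near the filter cut of about 43.2, where the fold of raw means exceeds the fitted difference. Onecut1, the liver-enriched factor HNF6, read 97.1, 132 and 135 at 800 mg/kg and 1642, 1053 and 584 at 2000 mg/kg. This was a 9.0-fold rise (2.90 ± 0.33, limma adjusted p = 0.000769), and the gene's other probe set, with means of 67.7 and 226, rose by less (1.57, limma adjusted p = 0.00737). Foxa2, a pioneer factor of hepatocytes, read 823, 739 and 1037 at the lower dose and 3577, 2499 and 4202 at the higher dose, a 3.96-fold rise (1.95 ± 0.22, limma adjusted p = 0.000734). Its relative Foxa1 rose 1.90-fold (0.90 ± 0.14, limma adjusted p = 0.00847), from 440 to 527 up to 829 to 1042. Foxa1 and the homeobox factor Hhex, which rose 1.62-fold from a mean of 5468 to 8849 (limma adjusted p = 0.0252), were chosen after their values were seen; the Hhex call was lost without replicate 1 or 3 of the 2000 mg/kg group or any 1 array of the 800 mg/kg group (adjusted p from 0.0685 to 0.117).

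Of 16 tested genes on the list headed female-predominant, 4 rose, 1 fell and 11 did not pass, beside 0.392% and 0.719% of all probe sets, with a median of 0.29 against -0.004 for all probe sets. The list is not uniform: beside female-predominant enzymes and receptors it holds growth hormone response genes (Cish, Socs2). It also holds Bcl6 and Car3, which are known from male liver, and Bcl6 was its only fall. Like the other lists, it was drawn up with earlier results of these data known, and Cish and Onecut1 are among its 4 rises. Its counts therefore describe the list and lend no support to a change of female-predominant genes. Sult2a2, a hydroxysteroid sulfotransferase typical of female rat liver, read 1865, 1040 and 1504 at 800 mg/kg and 12382, 8437 and 9201 at 2000 mg/kg. Every array at 2000 mg/kg was above every array at 800 mg/kg, a 6.81-fold rise (2.77 ± 0.35, limma adjusted p = 0.00165). Prlr, the prolactin receptor, read 442, 262 and 315 and then 868, 594 and 627 (1.01 ± 0.20, limma adjusted p = 0.0331) on the brightest of 3 probe sets. The dimmer Prlr probe sets did not pass (0.81 and 0.39, limma adjusted p = 0.144 and 0.584). The Prlr call was lost without any 1 of the 3 arrays at 2000 mg/kg or without replicate 2 or 3 at 800 mg/kg (adjusted p from 0.0607 to 0.137). Socs2, another inhibitor of growth hormone signalling, averaged 78.8 and 184 with overlapping groups and did not pass (limma adjusted p = 0.234). The cytochrome P450 genes Cyp2c12 and Cyp3a9 of the same list did not pass either. Of the 16 differences on the list, 10 were above 0 and 6 below.

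Of 17 tested male-predominant genes, 3 fell (0.719% of all probe sets did), none rose and 14 did not pass, with a median of -0.13. A1bg stood on both this list and the female-predominant one. Obp3, a carrier protein of the alpha-2u globulin family that male rats secrete in quantity, read 25838, 27737 and 27434 at 800 mg/kg and 6187, 12022 and 11190 at 2000 mg/kg. Both of its probe sets fell, the brighter one 2.75-fold (-1.52 ± 0.18, limma adjusted p = 0.00104). Hao2, a peroxisomal hydroxyacid oxidase, fell 1.59-fold, from 18070 to 21672 down to 10776 to 14384 (limma adjusted p = 0.00514). Stac3 fell 1.86-fold from a mean of 8657 to 4641 (limma adjusted p = 0.0238), a call lost without replicate 1 (adjusted p = 0.0732) or replicate 3 (adjusted p = 0.0905) of the 800 mg/kg group. The male-specific cytochrome P450 Cyp2c11, with means of 30920 and 26129, did not pass (-0.25, limma adjusted p = 0.413). Probe sets disagreed for 3 further genes chosen after their values were seen. Car3, carbonic anhydrase 3, fell on 1 probe set (-0.99, limma adjusted p = 0.000223) and did not pass on the brighter one (-0.20). Mup5, a major urinary protein, fell on 2 of 3 probe sets (-1.51 and -1.24), while the brightest did not pass (-0.33). The growth factor gene Igf1 fell on 1 of 3 probe sets (-0.44, limma adjusted p = 0.0154). Obp3 and Mup5 belong to families of near-identical genes, so their probe sets may share transcripts.

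**Figure D2:**
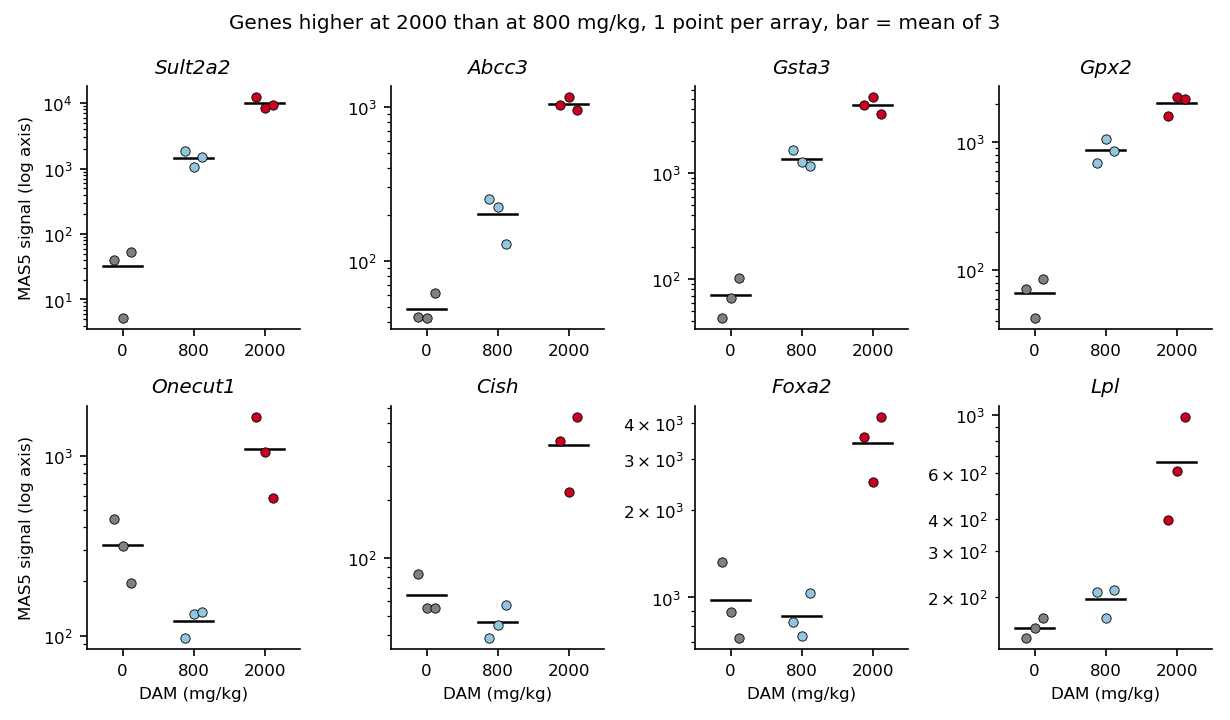
Deposited MAS5 signal (log axis) on each of 3 arrays at 0, 800 and 2000 mg/kg of DAM for 8 genes that passed as higher at 2000 than at 800 mg/kg; bars are means of 3. Sult2a2, Abcc3, Gsta3 and Gpx2 were already above 0 mg/kg at 800 mg/kg, whereas the Cish means were 64.1, 46.9 and 386.

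Enzymes and exporters for foreign compounds contributed a small number of large rises; a gene is counted in its lists by its brightest probe set. Of 25 tested NRF2 targets 3 rose (Gpx2, Abcc3, Ggt1), of 22 CAR and PXR targets 2 rose (Ces2c, Abcc3), and of 19 glutathione S-transferases 3 rose (Gstm3, Gsta3, Gstt3), beside 0.392% of all probe sets. The medians were 0.05, 0.04 and 0.15. At the lower step, from 0 to 800 mg/kg, 11 of the same 25 NRF2 targets and 13 of the 22 CAR and PXR targets had risen, a comparison that uses the same 800 mg/kg arrays. Over all 18625 tested probe sets, 403 rose and 302 fell at that lower step. Abcc3, an exporter of glucuronides and bile acids at the blood side of the hepatocyte, read 251, 223 and 129 at 800 mg/kg and 1026, 1154 and 945 at 2000 mg/kg. Its groups did not overlap and its mean rose 5.19-fold (2.33 ± 0.21, limma adjusted p = 0.000223). Gsta3 read 1634, 1263 and 1161 at the lower dose and 4333, 5193 and 3614 at the higher dose, a 3.24-fold rise (1.68 ± 0.22, limma adjusted p = 0.002). Gstm3, a mu-class transferase, read 261, 177 and 281 and then 859, 1001 and 868 (1.88 ± 0.22, limma adjusted p = 0.000868). Gstt3, of the theta class, rose 1.75-fold from a mean of 7251 to 12681 (limma adjusted p = 0.00614). Transferase and sulfotransferase families hold close copies, and a probe set may take signal from more than 1 member.

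Ces2c, a carboxylesterase that CAR activators raise, read 2822, 2540 and 2556 at 800 mg/kg and 6793, 7077 and 4794 at 2000 mg/kg (1.21 ± 0.14, limma adjusted p = 0.000846). Ggt1, the gamma-glutamyltransferase used to mark preneoplastic liver foci, read 495, 408 and 498 and then 962, 1119 and 1218 (1.21 ± 0.14, limma adjusted p = 0.000769). Gpx2, a glutathione peroxidase, read 685, 1069 and 847 and then 1594, 2254 and 2183 (1.21 ± 0.21, limma adjusted p = 0.0154). In all 3 genes the lowest array at 2000 mg/kg exceeded the highest at 800 mg/kg. The Gpx2 call was lost without replicate 2 or 3 of the 2000 mg/kg group (adjusted p = 0.0904 and 0.0607) or replicate 1 or 3 of the 800 mg/kg group (adjusted p = 0.076 and 0.0565). Of 19 tested markers of preneoplastic foci, these Ggt1 and Gpx2 rises and that of Abcc3 were the 3 called (0.392% of all probe sets rose). Gstp1, the classical marker of such foci, averaged 963 and 1169 and did not pass (0.23, limma adjusted p = 0.714). Among 29 other cytochrome P450 genes, Cyp26a1, which clears retinoic acid, rose 2.23-fold from a mean of 129 to 289 (limma adjusted p = 0.0243), with the call lost without replicate 1 (adjusted p = 0.0607) or 2 (adjusted p = 0.127) at 2000 mg/kg or any 1 array at 800 mg/kg (adjusted p from 0.0642 to 0.0979). None of the 5 tested targets of the dioxin receptor AhR passed; the 5 differences were all above 0 under each of 3 scalings, with a median of 0.44. Cyp1a1, the best known of them, read 541, 2077 and 325 at 800 mg/kg and 788, 1511 and 1964 at 2000 mg/kg, so that its groups overlapped (limma adjusted p = 0.573). The monooxygenase Fmo5 and the methyltransferase Inmt, chosen after their values were seen, rose 2.01-fold (limma adjusted p = 0.0244) and 1.99-fold (limma adjusted p = 0.00087). The Fmo5 call was lost without replicate 1 or 2 at 2000 mg/kg or replicate 1 or 3 at 800 mg/kg (adjusted p from 0.085 to 0.118).

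Among lipid genes the largest falls were those of Scd, Apoa4 and Mfsd2a, and the largest rise was that of Lpl. Scd, the stearoyl-CoA desaturase that makes monounsaturated fat, read 5287, 2615 and 8860 at 800 mg/kg and 1154, 283 and 913 at 2000 mg/kg. The groups did not overlap although each spread widely, and the mean fell 7.13-fold (-2.86 ± 0.46, limma adjusted p = 0.00879). Srebf1, which encodes the transcription factor SREBP1 that drives fatty acid synthesis, read 4203, 3262 and 3487 and then 2573, 1870 and 2193. Both of its probe sets fell (-0.72 ± 0.12 for the brighter, limma adjusted p = 0.0103), a call lost without replicate 1 of the 800 mg/kg group (adjusted p = 0.052). These were the 2 calls among 24 tested genes of fatty acid synthesis (0.719% of all probe sets fell), whose median was -0.13. Thrsp, a lipogenic gene of the same list, fell on 2 of 3 probe sets (-0.86 and -0.87, limma adjusted p = 0.04 and 0.0272), while the brightest did not pass (-0.69, limma adjusted p = 0.0549, and 0.0447 without replicate 1 of the 2000 mg/kg group). Fasn, the fatty acid synthase itself, chosen after its values were seen, averaged 4256 at 800 and 3975 at 2000 mg/kg and did not pass (limma adjusted p = 0.896). Apoa4, an apolipoprotein of secreted triglyceride-rich particles, read 614, 808 and 1218 and then 228, 110 and 178, a 5.12-fold fall (-2.25 ± 0.25, limma adjusted p = 0.000734). Mfsd2a, a carrier of lysophospholipids, read 2597, 3746 and 2749 and then 847, 660 and 603 (-2.08 ± 0.18, limma adjusted p = 0.000223).

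Lpl, the lipoprotein lipase that frees fatty acids from circulating particles and is low in adult hepatocytes, read 208, 166 and 213 at 800 mg/kg and 395, 612 and 987 at 2000 mg/kg. It rose 3.39-fold (1.60 ± 0.25, limma adjusted p = 0.00727) with separate groups. Among 36 tested PPARalpha targets 2 rose and 1 fell (1.11% of all probe sets changed), with a median of 0.00. Pdk4, the kinase that shuts pyruvate dehydrogenase, read 1228, 1250 and 1715 and then 3013, 2225 and 2679 (0.92 ± 0.13, limma adjusted p = 0.00456) on the brighter of its 2 probe sets. The dimmer Pdk4 probe set, with means of 259 and 284, did not pass (0.13, limma adjusted p = 0.80). Cidea, a lipid droplet protein, rose 2.00-fold, from 1977 to 2170 up to 3260 to 5160 (limma adjusted p = 0.00921), a call lost without replicate 1 of the 800 mg/kg group (adjusted p = 0.0516). Plin2, which coats lipid droplets, fell 1.33-fold from a mean of 9400 to 7071 on the brighter of 2 probe sets (limma adjusted p = 0.0416), and the dimmer one did not pass (-0.26). The Plin2 call was lost without any 1 array at 2000 mg/kg or replicate 1 or 3 at 800 mg/kg (adjusted p from 0.0772 to 0.16). None of 20 tested cholesterol synthesis and uptake genes passed, although 17 of the 20 differences were above 0 (median 0.20). From 0 to 800 mg/kg 7 of these genes had risen (403 of all 18625 probe sets did). Their differences between 800 and 2000 mg/kg ran from -0.70 for Insig1 (limma adjusted p = 0.0718), which holds SREBP in check, to 0.63 for Hsd17b7 (limma adjusted p = 0.335). Insig1 passed as lower without replicate 3 of the 800 mg/kg group (limma adjusted p = 0.00384).

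**Figure D3:**
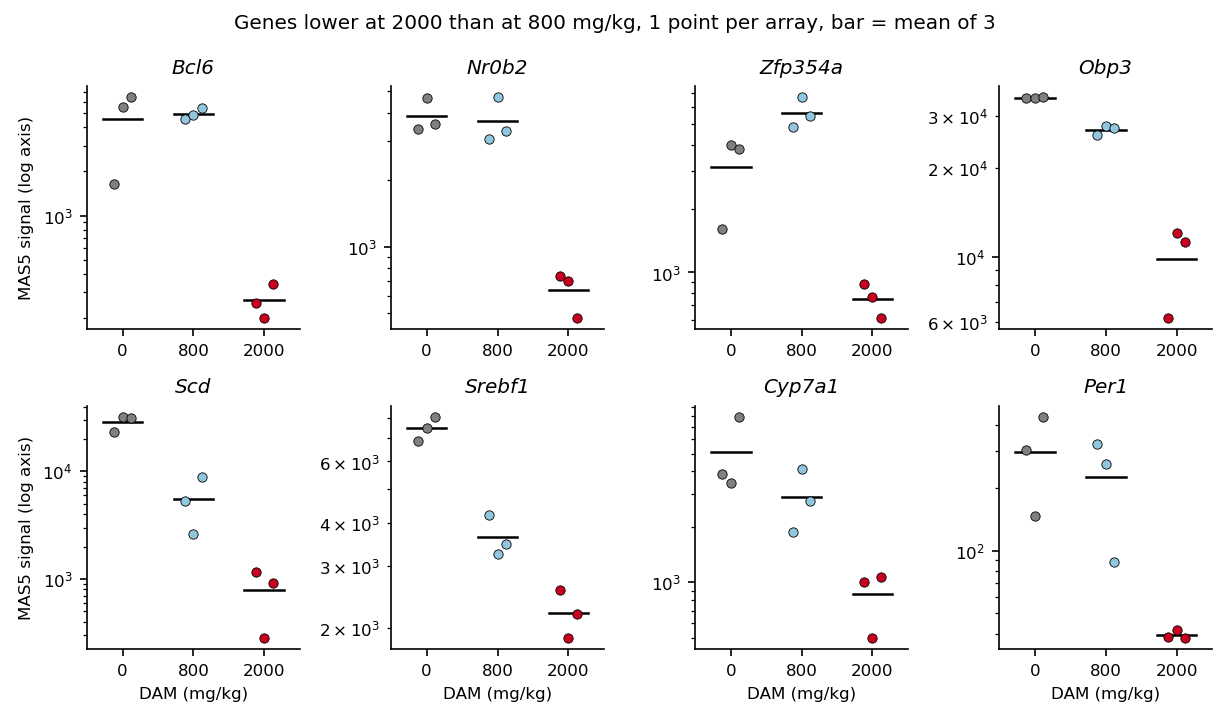
Deposited MAS5 signal (log axis) on each of 3 arrays at 0, 800 and 2000 mg/kg of DAM for 8 genes that passed as lower at 2000 than at 800 mg/kg; bars are means of 3. The Bcl6 means were 4545, 4932 and 265 and the Nr0b2 means 3862, 3686 and 638, whereas the Scd means were 28932, 5587 and 783.

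In bile acid metabolism, both the first enzyme and its repressor fell. Nr0b2 encodes SHP, a nuclear receptor without a DNA-binding domain that bile acids induce and that represses Cyp7a1. It read 3053, 4709 and 3296 at 800 mg/kg and 737, 700 and 476 at 2000 mg/kg, a 5.78-fold fall with well separated groups (-2.50 ± 0.19, limma adjusted p = 0.000186). Cyp7a1, the rate-limiting enzyme of bile acid synthesis, read 1872, 4100 and 2760 and then 1009, 498 and 1073 (-1.74 ± 0.35, limma adjusted p = 0.0336). Its call was lost without replicate 1 (adjusted p = 0.0595) or 2 (adjusted p = 0.129) of the 2000 mg/kg group and without replicate 2 (adjusted p = 0.143) or 3 (adjusted p = 0.0972) of the 800 mg/kg group. With the rise of Abcc3, these were the 3 calls among 26 tested genes of bile acid synthesis and transport (median -0.05), beside 1.11% of all probe sets called. Cyp8b1, which sets the hydroxylation pattern of bile acids, averaged 2762 and 3375 and did not pass (limma adjusted p = 0.668). The uptake carriers Slc22a8 and Slc22a7, which move organic anions into the hepatocyte and were chosen after their values were seen, fell 1.82-fold (limma adjusted p = 0.000223) and 1.27-fold (limma adjusted p = 0.0369). The Slc22a7 call was lost without any 1 of the 6 compared arrays (adjusted p from 0.0574 to 0.14).

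Of 19 tested circadian genes 3 fell (0.719% of all probe sets did) and 1 rose (0.392%), with a median of -0.14. Noct, a nuclease with a strong daily rhythm, read 512, 732 and 316 at 800 mg/kg and 154, 136 and 73.4 at 2000 mg/kg (-1.94 ± 0.28, limma adjusted p = 0.00395). Per1, a core repressor of the clock, read 325, 261 and 88.6 and then 38.6, 41.8 and 38.1, a 5.69-fold lower mean (-1.95 ± 0.41, limma adjusted p = 0.0449). Its signals at 2000 mg/kg lay just under the filter cut of about 43.2, where the fold of raw means exceeds the fitted difference. The Per1 call was lost without replicate 1 of the 0 mg/kg group, replicate 1 or 2 of the 800 mg/kg group or any 1 array of the 2000 mg/kg group (adjusted p from 0.0609 to 0.174). Usp2, a deubiquitinase under clock control, fell 1.72-fold from a mean of 694 to 403 (limma adjusted p = 0.00919), a call lost without replicate 1 of the 800 mg/kg group (adjusted p = 0.0546). Nfil3, a repressor whose rhythm runs opposite to that of Dbp, read 806, 915 and 844 and then 1620, 1318 and 1440 (0.76 ± 0.09, limma adjusted p = 0.00114). Dbp (0.21, limma adjusted p = 0.888) and Nr1d1 (0.37, limma adjusted p = 0.647), both of large daily amplitude, did not pass. No label used here states the hour at which each liver was taken, and its part in these values was not tested.

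Tat, the tyrosine aminotransferase that glucocorticoids induce, read 1388, 2319 and 1472 at 800 mg/kg and 776, 669 and 516 at 2000 mg/kg (-1.36 ± 0.20, limma adjusted p = 0.00514). It was the 1 call among 31 genes of gluconeogenesis and amino acid breakdown and the 1 call among 15 hepatocyte markers (1.11% of all probe sets were called). Tsc22d3 and Klf15, 2 genes that glucocorticoids induce, were picked after their values were seen and describe no list. Tsc22d3 (GILZ) read 7499, 8574 and 4847 and then 2859, 2396 and 2514 (-1.39 ± 0.19, limma adjusted p = 0.00296). Klf15 fell 1.67-fold on the brighter of 2 probe sets (limma adjusted p = 0.0365), and the dimmer one did not pass (-1.27). The Klf15 call was lost without replicate 2 of the 0 mg/kg group, replicate 2 or 3 of the 2000 mg/kg group or any 1 array of the 800 mg/kg group (adjusted p from 0.0603 to 0.151). Mt2A, a metallothionein that glucocorticoids and metals induce, fell 1.91-fold from a mean of 1302 to 681 (limma adjusted p = 0.0154); the call was lost without replicate 2 (adjusted p = 0.0798) or 3 (adjusted p = 0.0588) of the 800 mg/kg group. Other genes that glucocorticoids are known to raise did not pass: Dusp1 (-0.73, limma adjusted p = 0.138), Pck1 (-0.41, limma adjusted p = 0.225) and Igfbp1 (-1.56, limma adjusted p = 0.213). Of these, Dusp1 passed without replicate 3 of the 2000 mg/kg group (limma adjusted p = 0.0253) or replicate 3 of the 800 mg/kg group (limma adjusted p = 0.0454).

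Of 22 tested endoplasmic reticulum genes 3 fell (0.719% of all probe sets did) and 1 rose (0.392%), with a median of -0.13. Herpud1, which helps to degrade misfolded proteins, read 10501, 11930 and 10431 at 800 mg/kg and 5005, 3756 and 4068 at 2000 mg/kg (-1.36 ± 0.18, limma adjusted p = 0.00183). The oxidoreductase Pdia4 fell 1.33-fold, from 8542 to 9515 down to 6633 to 7000 (limma adjusted p = 0.00744, and 0.0978 after scaling to a common median). Creld2 fell 1.31-fold (limma adjusted p = 0.0449), a call lost without any 1 array other than replicate 1 of the 0 mg/kg group (adjusted p from 0.0551 to 0.173). Xbp1, a transcription factor of the unfolded protein response, rose 1.61-fold from a mean of 8461 to 13611 (limma adjusted p = 0.0173), a call lost without replicate 1 (adjusted p = 0.0843) or 2 (adjusted p = 0.0784) of the 800 mg/kg group. Of 21 ATF4 targets and serine synthesis genes 2 fell (0.719% of all probe sets did): the transcription factor Cebpb, 1.77-fold from 7881 to 9428 down to 4424 to 5407 (limma adjusted p = 0.000734), and Sesn2. Sesn2, also on the p53 list, fell 2.09-fold on the brighter of 2 probe sets (limma adjusted p = 0.0336), and the dimmer one did not pass (-0.35). The Sesn2 call was lost without replicate 2 of the 0 mg/kg group, replicate 1 or 3 of the 2000 mg/kg group or any 1 array of the 800 mg/kg group (adjusted p from 0.0536 to 0.119). Mdm2, the ubiquitin ligase that p53 induces and that degrades p53, read 773, 763 and 838 and then 1267, 1378 and 1314 (0.73 ± 0.09, limma adjusted p = 0.00106). It rose on 2 of 3 probe sets and was the 1 rise among 18 p53 targets (0.392% of all probe sets rose), while Cdkn1a did not pass (-0.32, limma adjusted p = 0.395).

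Dusp6, the phosphatase that ERK signalling induces and that switches ERK off, read 696, 563 and 738 and then 1600, 1482 and 1692 (1.24 ± 0.17, limma adjusted p = 0.00296). It was the 1 call among 26 immediate early genes (1.11% of all probe sets were called). Myc averaged 567 and 270 and did not pass (limma adjusted p = 0.168). Hspb1, a small heat shock protein, rose 1.62-fold (limma adjusted p = 0.0202) as the 1 call among 11 heat shock genes, with the call lost without replicate 2 or 3 at 2000 mg/kg or replicate 1 or 2 at 800 mg/kg (adjusted p from 0.0725 to 0.105).

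The remaining genes among the 12 largest changes in each direction fell outside these lists. Zfp354a, a zinc finger repressor first known from kidney, read 4833, 6710 and 5459 at 800 mg/kg and 881, 769 and 609 at 2000 mg/kg (-2.89 ± 0.28, limma adjusted p = 0.000325). Zfp189, another zinc finger gene, read 1176, 1764 and 1065 and then 405, 341 and 227 (-1.99 ± 0.22, limma adjusted p = 0.000734). Cdh17, the liver-intestine cadherin, read 4967, 4687 and 6097 and then 831, 2342 and 1933, so that even its highest array at 2000 mg/kg was below its lowest at 800 mg/kg (-1.73 ± 0.28, limma adjusted p = 0.00848). Rasgef1b, an activator of Ras-family proteins, read 1091, 1286 and 1006 and then 373, 416 and 257 (-1.67 ± 0.17, limma adjusted p = 0.000449). Among the rises, Grin2c, a subunit of the NMDA glutamate receptor, read 353, 347 and 399 and then 1093, 913 and 1034, with a narrow spread at each dose (1.43 ± 0.13, limma adjusted p = 0.000223). Rgs3, which dampens G protein signalling, rose 2.73-fold on the brightest of 3 probe sets (limma adjusted p = 0.00395), and the others did not pass. Rtp3, a protein that helps receptors reach the cell surface, read 1011, 875 and 1338 and then 2893, 2661 and 2495 (1.33 ± 0.20, limma adjusted p = 0.0058). Slc25a30, a mitochondrial carrier, rose 2.66-fold (limma adjusted p = 0.0288), a call lost without any 1 of the 6 compared arrays (adjusted p from 0.0543 to 0.113).

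None of 41 cell cycle genes passed at this step (median 0.07), and Mki67, the standard proliferation marker, averaged 89.0 and 92.4. None of 29 proteasome subunits passed either, although 28 of the 29 differences were above 0 (median 0.15) and 24 subunits had risen between 0 and 800 mg/kg (403 of all 18625 probe sets did). No call was made among 17 ribosomal protein genes, 31 genes of the respiratory chain, 32 genes of complement and coagulation or 14 of the urea cycle and glutamine enzymes. With 1.11% of all probe sets called, lists of these sizes would hold few calls or none at the same share, so these counts say nothing particular about the lists. At an unadjusted p under 0.05, 2269 of all tested probe sets differed.

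**Figure D4:**
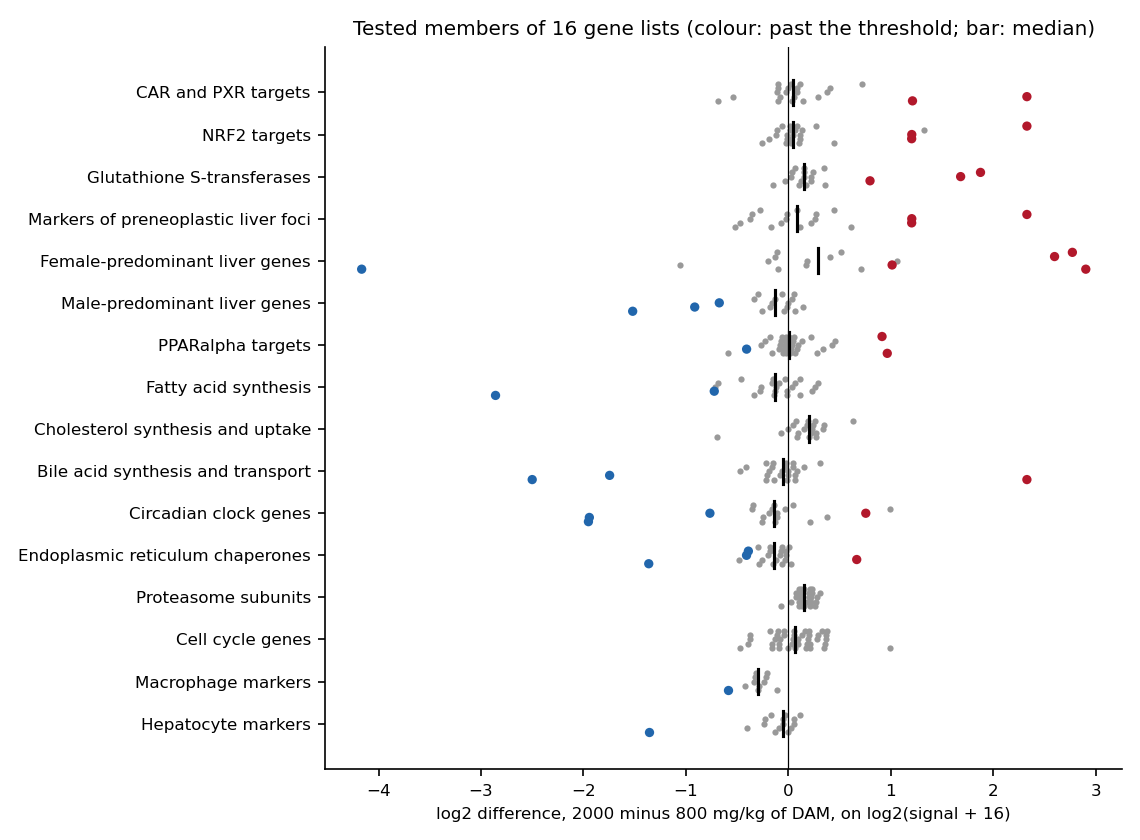
Log2 differences, 2000 minus 800 mg/kg on log2(signal + 16), of the tested members of 16 gene lists, 1 point per gene; red and blue points passed and black bars are list medians. The female-predominant list spans -4.17 (Bcl6) to 2.90 (Onecut1), while no proteasome or cell cycle gene passed.

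Of 11 tested macrophage markers 1 fell (0.719% of all probe sets did): Cd68, 1.52-fold, from 729 to 906 down to 471 to 595 (-0.59 ± 0.11, limma adjusted p = 0.0277). All 11 differences were below 0 under each of 3 scalings, with a median of -0.30, and the summed signal of the 12 markers on the array was 19655 to 31546 at 800 mg/kg and 18078 to 22283 at 2000 mg/kg, with overlapping groups. The Cd68 call was lost without replicate 1 or 2 of either dose (adjusted p from 0.0812 to 0.124). In a whole-liver sample, fewer cells of a type and less RNA per cell cannot be told apart. None of 10 genes of MHC class II and dendritic cells passed, although all 10 differences were below 0 (median -0.36). After quantile normalization or scaling to a common median, 9 of these 10 were below 0. The summed signal of the 12 such genes on the array was 10372 to 24111 at 800 mg/kg and 10533 to 13450 at 2000 mg/kg, with overlapping groups. None of 24 stellate cell and matrix genes passed, and 19 of their differences were below 0 (median -0.19). The summed signal of the 26 such genes on the array was 33166 to 38315 at 800 mg/kg and 31084 to 32675 at 2000 mg/kg, which did not overlap. No call was made among 11 sinusoidal endothelial markers (median 0.04). No erythroid marker passed either, although all 5 tested differences were above 0 (median 0.48), with sums of 12511 to 13686 at 800 mg/kg and 10708 to 22777 at 2000 mg/kg that overlapped. None of 7 tested cholangiocyte markers passed, and 5 of their differences were above 0 (median 0.13; all 7 after scaling to a common median). The summed signal of the 11 cholangiocyte markers on the array was 5666 to 6792 at 800 mg/kg and 6848 to 7074 at 2000 mg/kg, which did not overlap. Sums of the 15 acinar pancreas markers on the array did not overlap either (18489 to 20838 and then 14807 to 18401). None of the 4 tested acinar markers passed. Among single probe sets 18.6% had separate groups, and the sums were not tested. The part of these cell types in the changes of hepatocyte genes was not tested. Control probe sets gave a check of RNA quality: the log2 ratio of 3' to 5' signal was 2.47 to 3.0 at 800 mg/kg and 2.86 to 3.28 at 2000 mg/kg for beta-actin, and 0.61 to 0.74 and 0.76 to 1.01 for GAPDH. The GAPDH ratios did not overlap between the doses and differed by 0.16 (exact permutation test, two-sided p = 0.10), and those of beta-actin overlapped and differed by 0.31 (exact permutation test, two-sided p = 0.30). The mean of both was 0.24 higher at 2000 mg/kg (exact permutation test, two-sided p = 0.30, where 3 against 3 arrays cannot go below 0.10). Its part in the calls was not tested.

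The upper step was then set against the lower step, from 0 to 800 mg/kg, by a contrast of the 2 differences in the same fit. The contrast passed for 60 probe sets (0.322% of those tested). The signed value, upper minus lower difference, was above 0 for 20 of them and below 0 for 40. That sign does not tell which step was larger in size. Both differences use the 800 mg/kg arrays with opposite sign, so their values are given side by side. Of the 207 probe sets called in the upper step, 141 were not called between 0 and 800 mg/kg and 33 passed the contrast. The others divided into 19 that rose and 31 that fell in both steps, 6 that rose after a fall and 10 that fell after a rise. The number passing the contrast fell to 13 without replicate 2 of the 800 mg/kg group, 30 without replicate 1 or without replicate 3 of that group and 40 without replicate 2 of the 0 mg/kg group. It was 31 with no filter on low values and 2 with a constant variance prior.

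Several genes passed in the upper step and not in the lower one, with a contrast that passed. A lower step that did not pass is not shown to be without change. In that step Onecut1 and Zfp354a moved the opposite way, by -1.23 and 0.95. Nr0b2 differed by -0.08 between 0 and 800 mg/kg (limma adjusted p = 0.89) and by -2.50 between 800 and 2000 mg/kg; its contrast (adjusted p = 0.00859) was lost without replicate 2 of the 800 mg/kg group (adjusted p = 0.051). Zfp354a differed by 0.95 and -2.89 (contrast adjusted p = 0.00521, and 0.051 without the same array). Bcl6 differed by 0.34 and -4.17 (contrast adjusted p = 0.0113, and 0.0597, 0.0802 and 0.0565 without replicate 1, 2 or 3 of the 800 mg/kg group). Onecut1 differed by -1.23 and 2.90 (contrast adjusted p = 0.00943, and 0.0597 and 0.0605 without replicate 1 or 2 of that group). For Cish the differences were -0.34 and 2.60, and for Foxa2 -0.15 and 1.95. Their contrasts (adjusted p = 0.0289 and 0.0418) were each lost in 6 of the 9 fits that left out 1 DAM array, with adjusted p up to 0.143 and 0.248, the highest without replicate 2 of the 800 mg/kg group.

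Other genes turned back. Tsku, a secreted leucine-rich protein of the liver chosen after its values were seen, read 3529, 4025 and 3254 at 0 mg/kg, 7182, 7131 and 7400 at 800 mg/kg and 3695, 4023 and 3483 at 2000 mg/kg. It rose by 1.01 and then fell by 0.95, and its contrast passed in all 9 fits that left out 1 array (adjusted p = 0.0001). Herpud1 rose by 1.13 and fell by 1.36 (contrast adjusted p = 0.00518), and Mfsd2a rose by 0.77 and fell by 2.08 (contrast adjusted p = 0.00316); both contrasts passed in all 9 fits as well. Nfil3 fell by 0.55 and rose by 0.76, with a contrast that passed in all 9 fits (adjusted p = 0.00518). On its brighter probe set Pdk4 fell by 0.94 and rose by 0.92, returning to a mean of 2639 against 2674 at 0 mg/kg (contrast adjusted p = 0.00521, and 0.0508 without replicate 2 of the 800 mg/kg group). The dimmer one did not pass in the upper step.

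A last group had changed by 800 mg/kg and showed no further call. Sult2a6, a sulfotransferase close to Sult2a2, averaged 1896, 22487 and 31991 at 0, 800 and 2000 mg/kg. Its upper difference of 0.52 did not pass (limma adjusted p = 0.0663), but it passed without replicate 1 or 3 of the 0 mg/kg group (limma adjusted p = 0.0356 and 0.0221). The Sult2a6 contrast passed in all 9 fits (adjusted p = 6.06e-05). Abcb1a, the exporter P-glycoprotein, averaged 235, 1583 and 2049 (upper difference 0.38, limma adjusted p = 0.287; contrast adjusted p = 0.00316, passing in all 9 fits). Abcg5 and Abcg8, the 2 parts of the sterol exporter, rose by 4.23 and 3.58 between 0 and 800 mg/kg and differed by -0.03 and -0.01 between 800 and 2000 mg/kg. Abcg5 read 2281, 1926 and 1108 at 800 mg/kg and 922, 1694 and 2906 at 2000 mg/kg, so that the groups overlapped fully. The contrasts of Abcg5 (adjusted p = 0.00995) and Abcg8 (adjusted p = 0.0272) were lost without replicate 1 or 2 of the 800 mg/kg group (adjusted p from 0.0736 to 0.153), and that of Abcg8 also without replicate 2 of the 2000 mg/kg group (adjusted p = 0.0526). Slc6a6, the taurine carrier, had fallen by 2.05 and differed by 0.14 in the upper step (contrast adjusted p = 0.00973, and 0.0597 and 0.0762 without replicate 1 or 2 of the 800 mg/kg group). These 5 genes were chosen after their values were seen. Genes that went on rising included Sult2a2 (5.05 and then 2.77), Abcc3 (1.70 and 2.33), Ggt1 (2.43 and 1.21), Ces2c (1.93 and 1.21), Cidea (1.43 and 0.97) and Grin2c (1.04 and 1.43). For these 6 genes the contrast did not pass (adjusted p from 0.059 to 0.72). Gsta3 (4.03 and 1.68) and Gpx2 (3.44 and 1.21) also rose in both steps. Their contrasts passed (adjusted p = 0.0264 and 0.0282) and were lost in 5 and 3 of the 9 fits that left out 1 array, most clearly without replicate 1 (0.137, Gsta3) or 2 (0.158, Gpx2) of the 800 mg/kg group. Continuing falls included Apoa4 (-3.48 and then -2.25), Scd (-2.52 and -2.86), Noct (-1.61 and -1.94), Tat (-0.99 and -1.36) and Srebf1 (-1.03 and -0.72), whose contrasts did not pass (adjusted p from 0.42 to 0.95).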

How the data were processed

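The deposited values are array intensities, for which the submitters' processing notes name MAS5 with no version. Each array was scaled to a trimmed mean of about 500, as the trimmed means of 500.25 to 500.29 show. No detection calls were used. Of 31099 probe sets, 57 controls were left out; of the rest, 20826 had 1 gene symbol in GEO's platform annotation, 436 several and 9780 none, and symbols were updated through RefSeq (GRCr8). Genes without a probe set of their own were not analysed here. Values were taken as log2(signal + 16). Probe sets with a mean in the top 60% over the 9 DAM arrays (signal about 43.2 or more) were kept, and limma 3.58.1 (R 4.3.3, eBayes with trend, 3 groups, 6 residual degrees of freedom) was fitted with Benjamini-Hochberg adjustment; the fit was tested on simulated data. Precision is limited by 3 arrays a group. Same-numbered samples did not deviate together (correlations from -0.062 to 0.104), so no pairing was used. Named genes were the 12 largest rises and 12 largest falls with separated groups, 1 symbol and the brightest probe set a gene, up to 4 members of each list with the smallest adjusted p, and a fixed list of 26; others are marked where named. The comparison, the gene lists and these rules were chosen with earlier results of these data known. Alternatives were the pseudocount (1, 64), the filter, the scaling, the variance prior, a replicate block, only the 6 arrays compared, and leaving out each array.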

Additional observations from a re-analysis of the deposited data

How the results depend on the processing

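Between 800 and 2000 mg/kg 207 probe sets passed. The count was 60 with a constant variance prior and 121 to 231 over the 9 fits that left out 1 array each. It lay between 161 and 242 under the other settings (pseudocount 1 or 64, no filter, a filter at the 60th percentile, quantile normalization, a common median, the 6 arrays alone). With the replicate number as a replicate block 172 passed, 157 of them among the 207. The contrast of the upper with the lower step passed for 60 probe sets, for 2 with a constant variance prior, for 31 with no filter, for 59 with the replicate block and for 13 to 78 with 1 array left out. The share of rises among the calls was 35.3% and 43.5% after scaling to a common median, which moved the median of all differences to 0.037. Of 69 named genes with a call, none reversed its sign under any of these settings; 9 lost the call with the replicate block, 9 under the common median (among them Pdia4, Cd68, Plin2, Creld2, Klf15 and Slc22a7), 16 with no filter and 42 with the constant prior, and 46 to 68 kept it when 1 array was left out. The cause of these shifts was not tested. The 3' to 5' difference of control probe sets was 0.24, 0.31 from beta-actin alone, 0.16 from GAPDH alone and 0.13 to 0.32 with 1 array left out.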

Other observations

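Further regulators, chosen after their values were seen, differed between 800 and 2000 mg/kg and kept their call in all 9 fits that left out 1 array. Id4, an inhibitor of helix-loop-helix factors, read 4107, 4141 and 4156 at 800 mg/kg and 2121, 1897 and 2174 at 2000 mg/kg, with 3 of its 4 probe sets called as lower (-1.0 ± 0.11, limma adjusted p = 0.000665). Irf2bp2, a transcriptional co-repressor, read 5670, 5414 and 4906 and then 2699, 2703 and 2326, with both probe sets lower (-1.04 ± 0.10, limma adjusted p = 0.000411). The contrast with the lower step did not pass for either gene (adjusted p = 0.47 and 0.071), but that of Irf2bp2 passed without replicate 3 of the 0 mg/kg group (adjusted p = 0.0411).

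Some large differences did not pass. Groups were separate in 18.6% of all tested probe sets, so separate groups lend these differences no support. Igfbp1, an insulin- and glucocorticoid-responsive binding protein, read 2801, 7308 and 3374 and then 2531, 814 and 1278, with separate groups (-1.56, limma adjusted p = 0.213). Hamp, the iron hormone hepcidin, read 21547, 22448 and 23389 and then 12848, 15991 and 6150, also with separate groups (-1.05, limma adjusted p = 0.0684). It passed without replicate 2 or 3 of the 2000 mg/kg group (limma adjusted p = 0.017 and 0.00889). Osgin1, an oxidative stress gene, read 3029, 2036 and 5157 and then 8105, 7254 and 8533 (1.32, limma adjusted p = 0.0541), and it passed without replicate 1 (adjusted p = 0.033) or 3 (adjusted p = 0.0326) of the 0 mg/kg group or replicate 3 of the 800 mg/kg group (adjusted p = 0.00834).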
